A study of Rattus norvegicus with 15 samples.

Results

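The genes that encode the proteasome were examined in cultured rat brain microvascular endothelial cells (BMECs) exposed to x-rays. They were taken by name, as every row of the expression table whose gene name starts with Psma, Psmb, Psmc, Psmd, Psme, Psmf or Psmg, without Psmb8, Psmb9 and Psmb10, the inducible catalytic subunits of the immunoproteasome. The table held 46 such genes. Of these, 44 had a mean level of at least 0.5 FPKM (fragments per kilobase of transcript, scaled to the number of mapped fragments) and were tested among 16124 genes and unnamed loci of 37367 in all. Psma8, a testis alpha subunit, and Psmb11, the thymus beta subunit, stayed below that level, at no more than 0.0889 FPKM in any library for Psma8 and no more than 0.0531 FPKM for Psmb11. Psmc3ip, a recombination factor, was taken through its name only and is not a proteasome subunit.

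BMECs were grown from cerebral microvessels of Spraque-Dawley rats (spelled as in the labels), littermates of both sexes aged 2 to 3 weeks. The study asked how x-rays change gene expression in these cells. In the 4 exposed groups, cells received 5 Gy or 20 Gy and were collected 12 or 24 h later, and the label of the control cells gives 12 h of culture and no radiation. Each group had 3 libraries, which the study's methods call biological replicates, although the labels do not say whether they came from separate cultures or animals; if they did not, the p-values measure technical spread only. No unexposed culture of 24 h was analysed here, so time after exposure and time in culture cannot be told apart at 24 h.

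The proteasome is the barrel-shaped protease that degrades proteins tagged with ubiquitin. Its 20S core is built of rings of alpha subunits, which gate the entry, and rings of beta subunits, which hold the catalytic sites. The 19S particle caps the core, with ATPases in its base that unfold the substrate and a lid that removes ubiquitin. Activators of the PA28 and PA200 kind bind the same core ends, and dedicated chaperones build the complex. When proteasome activity is low, the transcription factor NRF1 (Nfe2l1) is known to raise the subunit genes together through antioxidant-type elements in their promoters.

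Of the 44 genes, 40 had a promoter sequence of 250 bases before and 50 after the start in RefSeq (rat build GRCr8). The element TGACNNNGC, in which N is any base, was searched on both strands. It was present in 8 of the 40 promoters (20%), against 12.1% of 33469 rat promoters of the same length. The CCAAT box was present in 20 of 40 (50%), against 37.5% of all promoters. The heat shock element, searched by its alternating GAA and TTC blocks on both strands, had 0 matches in the 40 and was in 0.798% of all promoters. A match describes the letters and does not show that a factor binds. The stretches around the TGACNNNGC match (in capitals) of 3 beta subunit genes are given because these genes encode beta subunits of the core and all 3 fell by the test after both doses at 24 h. They lie at chr5:144254960-144255028 (plus strand) for Psmb2, chr15:32047401-32047469 (minus strand) for Psmb5 and chr10:55737834-55737887 (plus strand) for Psmb6, all in GRCr8 and all upstream of the start.
Psmb2: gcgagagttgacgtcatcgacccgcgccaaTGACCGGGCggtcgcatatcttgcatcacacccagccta
Psmb5: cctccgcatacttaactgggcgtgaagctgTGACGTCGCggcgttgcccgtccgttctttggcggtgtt
Psmb6: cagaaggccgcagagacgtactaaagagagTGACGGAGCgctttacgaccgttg

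Markers of cell types were checked before the comparisons. Only transcripts that carry the gene's name were counted for the markers, and unnamed transcripts of their loci were not analysed here. On these levels the endothelial list went against the label of the cells. Of its 10 genes, 9 were in the table and 2 reached a mean of 0.5 FPKM, while Tie1 and Emcn were at 0 in every library and Cdh5, the endothelial cadherin, was at no more than 0.275 FPKM. All 6 fibroblast markers had a mean of at least 1 FPKM. Their summed level was 1366 to 1466 FPKM in control libraries, 1033 to 1102 FPKM 12 h after 5 Gy and 923 to 966 FPKM 12 h after 20 Gy. It was 228 to 268 FPKM and 210 to 272 FPKM at 24 h, where 5 of the 6 were called lower after each dose. Other lists also had signal. The pericyte sum was 26.9 to 29.5 FPKM in control libraries and 9.17 to 13.3 FPKM at 24 h, with 2 genes called lower after each dose. The astrocyte sum, nearly all Gja1, was 410 to 616 FPKM in control libraries. At 24 h, 1 astrocyte and 1 microglia gene were called lower and 1 smooth muscle gene higher after each dose, and 1 neuron gene higher after 5 Gy. The part of these marker changes in the proteasome results was not tested. In bulk RNA, fewer cells of a type and less RNA per cell cannot be told apart.

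The summed level of the proteasome genes was lower in every exposed group. The 44 genes summed to 2354, 2483 and 2776 FPKM in the 3 control libraries, to 2210, 2327 and 2302 FPKM 12 h after 5 Gy, and to 2222, 2293 and 2110 FPKM 12 h after 20 Gy. At 24 h the sums were 1962, 1970 and 1918 FPKM after 5 Gy and 2048, 2073 and 1985 FPKM after 20 Gy. All exposed libraries lay below the lowest control library, and control replicate 3 was the highest of all. After 5 Gy the group mean was 89.8% of the control mean at 12 h and 76.8% at 24 h. For 20 Gy these values were 87.02% and 80.2%. As a share of all FPKM in the library, the genes made up 0.554% ± 0.0266 (SD, n = 3) in control cells. The 24 h groups had 0.472% ± 0.0059 (5 Gy) and 0.471% ± 0.012 (20 Gy). The summed FPKM of whole libraries itself ran from 411365 to 476629, and the highest was control replicate 3.

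At the level of single genes, the fall was broad and modest at 24 h. The adjusted p (limma, Benjamini-Hochberg over all genes tested) was under 0.05 and the gene lower in 26 of 44 genes (59.1%) after 5 Gy and in 23 of 44 (52.3%) after 20 Gy, where 25.4% and 27.4% of all genes tested were lower by that rule. In limma 0 of the 44 were higher, also at an unadjusted p under 0.05, while by adjusted p 18.8% and 16.2% of all genes tested were higher. The median log2 change of the 44 genes was -0.41 after 5 Gy and -0.33 after 20 Gy, beside -0.09 and -0.16 over all genes tested. With a fold of at least 1.5 also required (a gene is then named as called), 10 of 44 genes (22.7%) after 5 Gy and 9 of 44 (20.5%) after 20 Gy were called lower, against a background of 18.8% and 20.5% called lower (14.7% and 12.6% were called higher). By this stricter rule the share of proteasome genes was therefore near that of all genes. All 3 exposed libraries lay below all 3 control libraries for 30 genes after 5 Gy and 27 after 20 Gy (68.2% and 61.4%), where 32% and 33% of all genes tested did so. The genes tested include all with a mean of at least 0.5 FPKM and were not matched to the members for level or SE. How far the shares by adjusted p and by overlap, here and below, depend on level and SE was not tested. The 4 comparisons with control share the same 3 control libraries, so their values are given side by side and not as repeats of each other.

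The size of the shift depended on the scaling. Quantile normalization, which forces all libraries to 1 distribution, moved the median of all genes at 24 h after 20 Gy from -0.16 to -0.03. The median of the proteasome genes was then -0.16 after 5 Gy and -0.10 after 20 Gy. By adjusted p alone, 14 of 44 genes (31.8%) fell and 2 rose after 5 Gy, and 15 (34.1%) fell and 2 rose after 20 Gy, beside backgrounds of 21.7% and 21.9% lower and 20.6% and 19.6% higher. The 2 that rose on this scale were Psma4 and Psmd7 at both doses. Of the called genes, Psmb5, Psmc1 and Psmd13 at both doses, Psmc3, Psmd8 and Psme1 after 5 Gy and Psmd3 after 20 Gy were not called on the quantile scale. With FPKM rescaled to TPM (a fixed total per library), Psmc1 at both doses, Psmc3, Psmd8 and Psme1 after 5 Gy and Psmb5 and Psmd3 after 20 Gy were not called. Without control replicate 3, the counts by adjusted p were 19 and 18 genes (43.2% and 40.9%) and the called genes were 5 at each dose (11.4%). The share of all genes tested is not given for that fit. The medians were then -0.32 and -0.23, beside -0.09 and -0.14 over all genes tested.

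**Figure D1:**
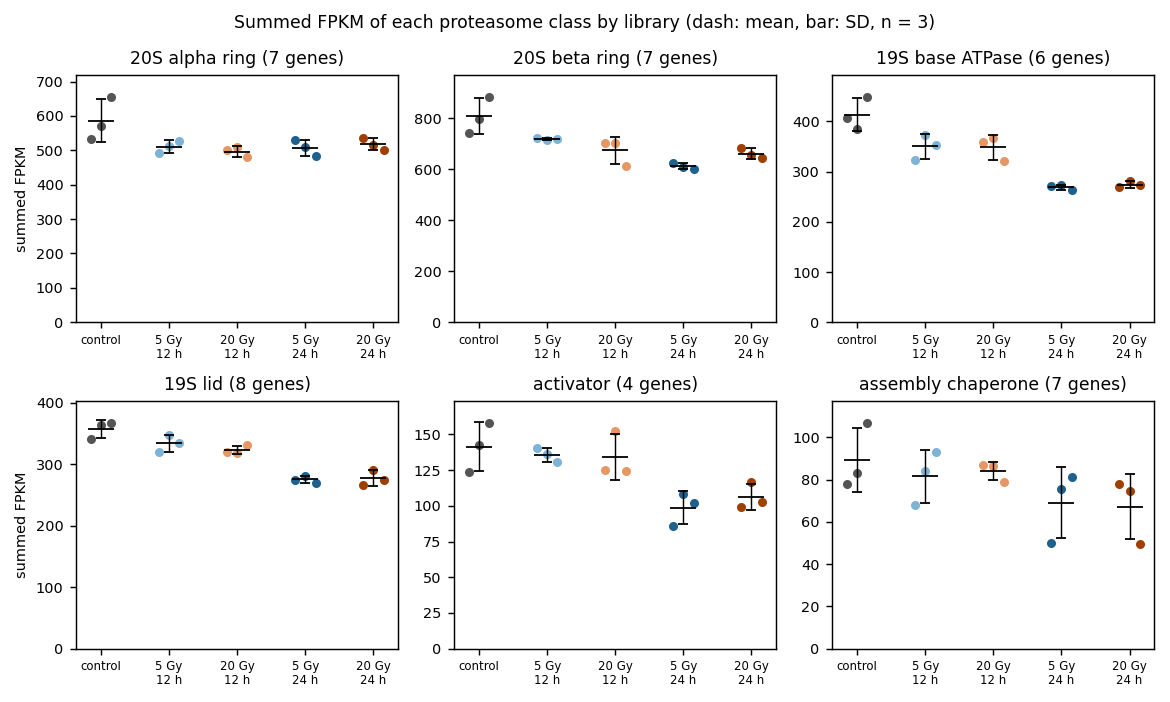
Summed FPKM of the members of 6 proteasome classes in each library, named transcripts only, by group, with the group mean (dash) and SD (bar, n = 3). At 24 h the base ATPase genes lay at 263 to 273 FPKM (5 Gy) and 269 to 281 FPKM (20 Gy), below all 3 control libraries (384 to 448 FPKM), while 1 alpha ring library after 20 Gy (536 FPKM) reached above the lowest control (534 FPKM).

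Of the 7 alpha ring genes of the 20S core, 4 fell by adjusted p at 24 h after 5 Gy and 3 after 20 Gy, and 0 were called. Their summed level was 86.5% of control 24 h after 5 Gy and 88.2% after 20 Gy. Psma1, Psma3 and Psma5 fell at both doses by adjusted p, and Psma2 after 5 Gy. Psma2, the alpha subunit gene with the highest mean, stood at 100.0, 103 and 117 FPKM in control cells, 97.7, 88.9 and 89.6 FPKM 24 h after 5 Gy, and 108, 96.7 and 91.3 FPKM 24 h after 20 Gy. After 5 Gy the libraries lay just below the controls, and after 20 Gy they overlapped them. The log2 change of Psma2 was -0.21 ± 0.08 (SE, adjusted p = 0.0494) after 5 Gy and -0.12 ± 0.08 (adjusted p = 0.268) after 20 Gy. Psma4 had log2 changes of 0.02 ± 0.10 at both doses, with 95% intervals from -0.21 to 0.25.

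The 7 beta ring genes fell further than the alpha ring genes in summed level, to 75.7% and 81.9% of control at 24 h. By adjusted p, 6 of 7 fell after 5 Gy and 5 of 7 after 20 Gy. Psmb5, which encodes the subunit with chymotrypsin-like activity (chr15:33259043-33263659 in Rnor_6.0, minus strand), was measured at 68.1, 75.6 and 85.6 FPKM in control cells. It stood at 76.1, 72.5 and 75.7 FPKM 12 h after 5 Gy and 73.5, 70.4 and 66.4 FPKM 12 h after 20 Gy. At 24 h its levels were 44.4, 44.5 and 44.7 FPKM after 5 Gy and 55.7, 45.7 and 48.9 FPKM after 20 Gy. The 12 h libraries overlapped the controls, and all 24 h libraries lay below them.

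The log2 change of Psmb5 was -0.76 ± 0.09 (adjusted p = 2.87e-05) after 5 Gy and -0.60 ± 0.09 (adjusted p = 0.000198) after 20 Gy at 24 h. It fell between 12 and 24 h as well, by 0.73 on the log2 scale after 5 Gy (adjusted p = 4.87e-05) and by 0.48 after 20 Gy (adjusted p = 0.00115). Psmb4, a structural beta subunit and the beta gene with the highest mean, changed in smaller steps. Its control libraries stood at 168, 180 and 190 FPKM and its 24 h libraries at 136, 134 and 130 FPKM after 5 Gy and 151, 143 and 149 FPKM after 20 Gy. No exposed library of Psmb4 at 24 h reached the lowest control. Its log2 changes were -0.43 ± 0.06 (adjusted p = 0.000146) and -0.28 ± 0.06 (adjusted p = 0.00315). Psmb2, a beta subunit without catalytic activity, had already fallen at 12 h, with log2 changes of -0.32 ± 0.08 (adjusted p = 0.0208) after 5 Gy and -0.35 ± 0.08 (adjusted p = 0.0154) after 20 Gy.

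All 6 ATPases of the 19S base were lower after 5 Gy by adjusted p and 5 of 6 after 20 Gy, where Psmc2 had a log2 change of -0.17 ± 0.07 (adjusted p = 0.0851). The summed level of the class was 65.1% of control after 5 Gy and 66.4% after 20 Gy. With unnamed transcripts of the loci added, described below for Psmc5, it was 69.3% and 70.2%. Psmc3 was the most abundant of them on average. It stood at 110, 122 and 133 FPKM in control cells, 77.8, 77.5 and 80.1 FPKM 24 h after 5 Gy, and 76.1, 79.4 and 87.95 FPKM 24 h after 20 Gy, with no overlap. The log2 changes of Psmc3 were -0.62 ± 0.10 (adjusted p = 0.000214) and -0.58 ± 0.10 (adjusted p = 0.000401). Psmc1 (chr6:124123228-124135658 in Rnor_6.0, plus strand) had control values of 79.3, 76.9 and 91.7 FPKM and 24 h values of 51.8, 50.8 and 49.3 FPKM after 5 Gy and 51.7, 60.5 and 45.5 FPKM after 20 Gy. Its log2 changes were -0.69 ± 0.11 (adjusted p = 0.000252) and -0.65 ± 0.11 (adjusted p = 0.000437), called at both doses on FPKM and at neither after quantile normalization or TPM scaling.

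Psmc5 showed the largest fall of all members at 24 h, but its size depended on which transcripts were summed. In the table, StringTie assembled transcripts that carry no gene name at the loci of named genes. The Psmc5 row is 1 annotated transcript (ENSRNOT00000013997, chr10:94445877-94451811 in Rnor_6.0, plus strand, 12 exons), which stood at 56.5, 16.2 and 29.9 FPKM in control cells, 3.84, 5.6 and 5.16 FPKM 24 h after 5 Gy, and 5.34, 4.57 and 8.27 FPKM 24 h after 20 Gy. All 24 h libraries lay below the lowest control, and the control libraries lay far apart. The log2 change was -2.43 ± 0.62 (adjusted p = 0.00714) after 5 Gy and -2.18 ± 0.62 (adjusted p = 0.013) after 20 Gy. An unnamed transcript of 13 exons from the same start, ending at 94453396, held 19.3 FPKM on average in control cells and 26.5 and 31.0 FPKM at 24 h. With all transcripts of the locus summed, Psmc5 was nearly equal across libraries of a group, at 56.8, 53.3 and 58.4 FPKM in control cells, 36.9, 36.2 and 39.9 FPKM after 5 Gy, and 35.1, 38.0 and 38.4 FPKM after 20 Gy. On that sum its log2 change was -0.56 ± 0.07 (adjusted p = 1.19e-05) and -0.58 ± 0.07 (adjusted p = 9.55e-06), close to those of Psmc1 and Psmc3 and under the 1.5-fold limit.

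Unnamed transcripts touched other members too. Of the 44 genes, 26 had none at their locus, 3 had under 10% of their level in them, 15 had 10% or more and 8 had 50% or more. Of the 29 genes under 10%, 22 fell by adjusted p after 5 Gy and 18 after 20 Gy, beside 25.4% and 27.4% of all genes tested. Of these 29, 7 and 5 were called lower, beside 18.8% and 20.5% of all genes tested. With the unnamed transcripts of loci with 1 gene name added (the full sum), which leaves Psmd8, Psmd9 and Psme3 at their named values, 30 genes (68.2%) fell after 5 Gy and 24 (54.5%) after 20 Gy, beside 30.6% and 34.1% of 17895 genes tested, 1 gene rose at each dose, and 9 and 7 were called lower, beside 20.8% and 23.3% of all. The full sums of the members fell to 78.1% and 81.3% of control.

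**Figure D2:**
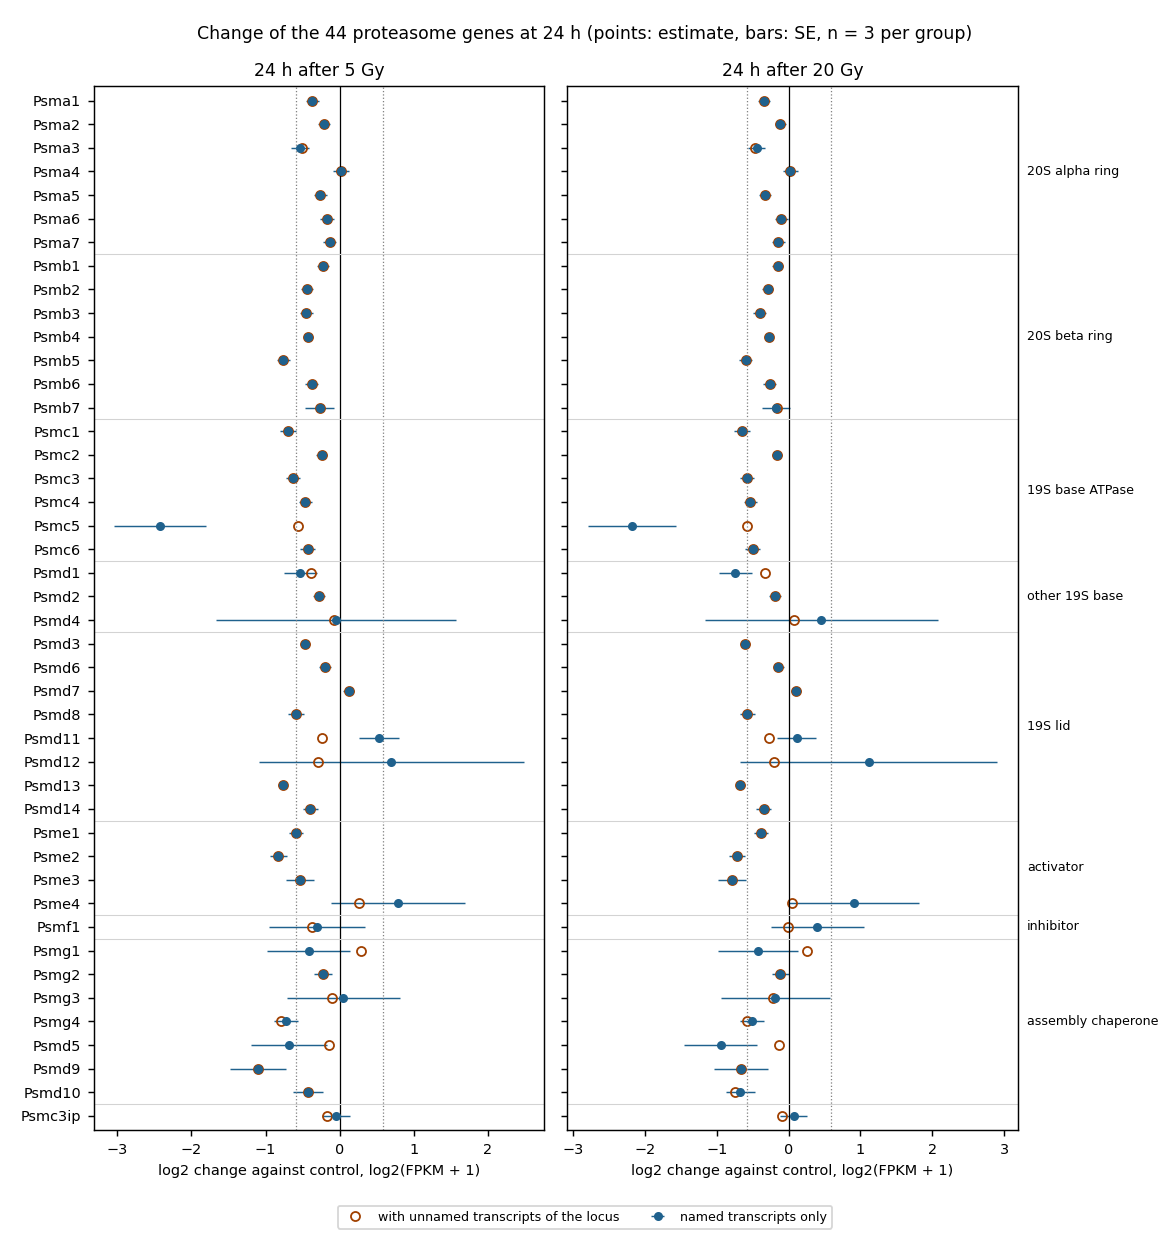
Log2 change against control of each of the 44 genes, by class, 24 h after 5 Gy (left) and 20 Gy (right). Filled points with SE bars use named transcripts only, open points add the unnamed transcripts of loci with 1 gene name (Psmd8, Psmd9 and Psme3 keep their named values), and dotted lines mark a 1.5-fold change. Most points lie left of 0, and the widest bars (Psmd4 and Psmd12) belong to genes whose open points lie near the rest.

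The other base genes were Psmd1, Psmd2 and Psmd4. Psmd2, a scaffold subunit that binds ubiquitin-like domains, was measured at 109, 130 and 126 FPKM in control cells, 103, 90.8 and 105 FPKM 24 h after 5 Gy, and 101, 101 and 116 FPKM 24 h after 20 Gy. Its log2 change was -0.28 ± 0.08 (adjusted p = 0.0163) after 5 Gy, with all 3 libraries below the controls, and -0.19 ± 0.08 (adjusted p = 0.0815) after 20 Gy, with overlap. Psmd1, the other scaffold, was called lower after 20 Gy at -0.74 ± 0.22 (adjusted p = 0.0184) while unnamed transcripts held 93.8% of its locus. On the full sum it had -0.39 ± 0.08 after 5 Gy and -0.34 ± 0.08 after 20 Gy, both lower by adjusted p. Psmd4, the ubiquitin receptor, ran from 0 to 27.2 FPKM in its named transcript, with 0 in 6 libraries. Its log2 change on named transcripts was 1.83 ± 1.62 at 12 h after 20 Gy (adjusted p = 0.569). Summed over the locus, its libraries stood between 50.7 and 66.4 FPKM, and its log2 changes were from -0.07 to 0.07 with SE of 0.11 in all 4 comparisons.

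The lid genes divided into those that fell clearly and those that did not. Psmd13 (chr1:213636093-213648488 in Rnor_6.0, plus strand), a structural lid subunit, was called at both doses, also with each single library left out in turn, but at neither after quantile normalization. It stood at 64.2, 66.6 and 72.0 FPKM in control cells, 59.2, 57.9 and 56.1 FPKM 12 h after 5 Gy, and 56.9, 59.1 and 56.5 FPKM 12 h after 20 Gy. At 24 h it stood at 40.3, 39.7 and 38.0 FPKM after 5 Gy and 42.1, 43.5 and 40.4 FPKM after 20 Gy. The 3 levels, control, 12 h and 24 h, did not overlap. Its log2 changes were -0.22 ± 0.06 (adjusted p = 0.0332) and -0.23 ± 0.06 (adjusted p = 0.0333) at 12 h, and -0.77 ± 0.06 (adjusted p = 1.23e-06) and -0.67 ± 0.06 (adjusted p = 3.68e-06) at 24 h.

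Psmd3, the lid gene with the highest mean, was at 81.8, 81.0 and 75.0 FPKM in control cells, 57.8, 56.0 and 58.1 FPKM 24 h after 5 Gy, and 53.7, 46.4 and 55.2 FPKM 24 h after 20 Gy. Its log2 changes were -0.46 ± 0.07 (adjusted p = 0.000174) and -0.61 ± 0.07 (adjusted p = 2.22e-05). Psmd14, the deubiquitinase of the lid, fell by 0.39 and 0.35 on the log2 scale (adjusted p = 0.00783 and 0.0164). Psmd7, which pairs with Psmd14 in the lid, went the other way in sign, at 0.12 ± 0.07 (adjusted p = 0.19) and 0.10 ± 0.07 (adjusted p = 0.273), with control libraries at 39.1 to 42.2 FPKM and 24 h libraries at 41.6 to 46.7 FPKM. The 3 libraries after 5 Gy lay above all controls and those after 20 Gy overlapped them. Neither value passed the test, and the 95% interval after 5 Gy ran from -0.03 to 0.28.

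Psmd11 and Psmd12 had the largest positive changes of the lid genes at 24 h on named transcripts, and neither passed the test. Psmd12 ran from 0 to 27.4 FPKM, with values under 1 FPKM in 7 libraries, and its log2 change was 1.12 ± 1.79 after 20 Gy at 24 h (adjusted p = 0.654). The sum over its locus was 33.9, 32.6 and 33.4 FPKM in control cells and between 25.4 and 30.9 FPKM in every exposed library. On that sum Psmd12 was lower by adjusted p in all 4 comparisons, with log2 changes of -0.25 ± 0.07, -0.27 ± 0.07, -0.29 ± 0.07 and -0.20 ± 0.07 in the order 5 Gy at 12 h, 20 Gy at 12 h, 5 Gy at 24 h and 20 Gy at 24 h. Psmd11 stood at 1.31 to 2.69 FPKM in control cells and had a log2 change of 0.53 ± 0.27 (adjusted p = 0.135) 24 h after 5 Gy, which on the full sum was -0.24 ± 0.14 (adjusted p = 0.146).

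**Figure D3:**
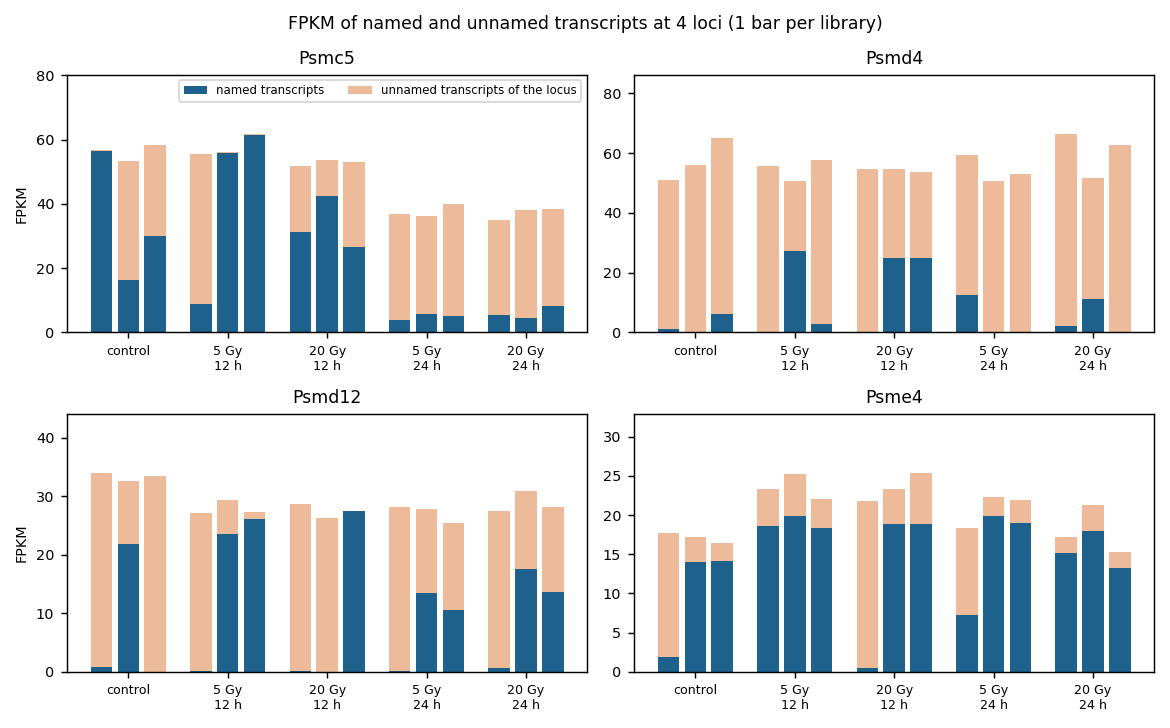
FPKM of the named transcripts (dark) and of unnamed transcripts of the same locus (light) for Psmc5, Psmd4, Psmd12 and Psme4, with 1 bar per library. For Psmc5 in control cells, the full bar ran from 53.3 to 58.4 FPKM, while the dark part ran from 16.2 to 56.5 FPKM. The full bar was not steady in every group. For Psme4 24 h after 20 Gy it ran from 15.2 to 21.3 FPKM, and the dark part from 13.25 to 17.95 FPKM.

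Among the activators, both genes of the cytoplasmic PA28 fell. Psme2 (chr15:34265557-34269851 in Rnor_6.0, minus strand), the beta subunit of PA28, stood at 30.7, 30.7 and 35.2 FPKM in control cells, 17.4, 18.6 and 17.1 FPKM 24 h after 5 Gy, and 17.96, 20.4 and 18.95 FPKM 24 h after 20 Gy. No 24 h library overlapped a control. Its log2 changes were -0.83 ± 0.11 (adjusted p = 8.97e-05) and -0.72 ± 0.11 (adjusted p = 0.000267). Psme1, the alpha subunit, stood at 70.2, 75.2 and 88.6 FPKM in control cells, 47.6, 53.0 and 53.1 FPKM after 5 Gy, and 55.8, 61.7 and 60.7 FPKM after 20 Gy. Its log2 changes were -0.59 ± 0.10 (adjusted p = 0.000363) and -0.38 ± 0.10 (adjusted p = 0.00703). Psme1 and Psme2 also serve antigen processing and are induced by interferon, as are the immunoproteasome genes described further on.

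On its named transcripts, Psme3, the nuclear PA28 gamma, stood at 20.8, 22.6 and 19.9 FPKM in control cells, 13.6, 16.5 and 13 FPKM after 5 Gy, and 10.45, 16.4 and 9.49 FPKM after 20 Gy. All 24 h libraries lay below the controls, and its log2 changes were -0.53 ± 0.19 (adjusted p = 0.0387) and -0.79 ± 0.19 (adjusted p = 0.00502). Unnamed transcripts held 37.02% of the level there, in a locus with 4 gene names. With the one that has the same start and end as a named Psme3 transcript added, a sum chosen after the data were seen, its libraries stood at 27.05, 22.6 and 24.1 FPKM in control cells, 21.97, 16.5 and 20.02 FPKM after 5 Gy, and 21.5, 19.4 and 19.1 FPKM after 20 Gy. They still lay below the controls, but neither change passed the test, at -0.32 ± 0.15 (adjusted p = 0.0845) and -0.28 ± 0.15 (adjusted p = 0.129).

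Psme4, which encodes PA200 and is known from DNA repair and from spermatogenesis, was the one member that rose at 12 h, and only by the full sum. Its locus held 10 unnamed transcripts. On the sum of the locus it stood at 17.7, 17.2 and 16.4 FPKM in control cells, 23.4, 25.3 and 22.1 FPKM 12 h after 5 Gy, and 21.8, 23.4 and 25.3 FPKM 12 h after 20 Gy, with no overlap. The log2 change was 0.44 ± 0.11 (adjusted p = 0.0169) after 5 Gy and 0.43 ± 0.11 (adjusted p = 0.0199) after 20 Gy. At 24 h it was 0.27 ± 0.11 (adjusted p = 0.0578) and 0.05 ± 0.11 (adjusted p = 0.723). On named transcripts alone it did not pass in any of the 4, at 1.19 ± 0.91 and -0.08 ± 0.91 for the 12 h groups.

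**Figure D4:**
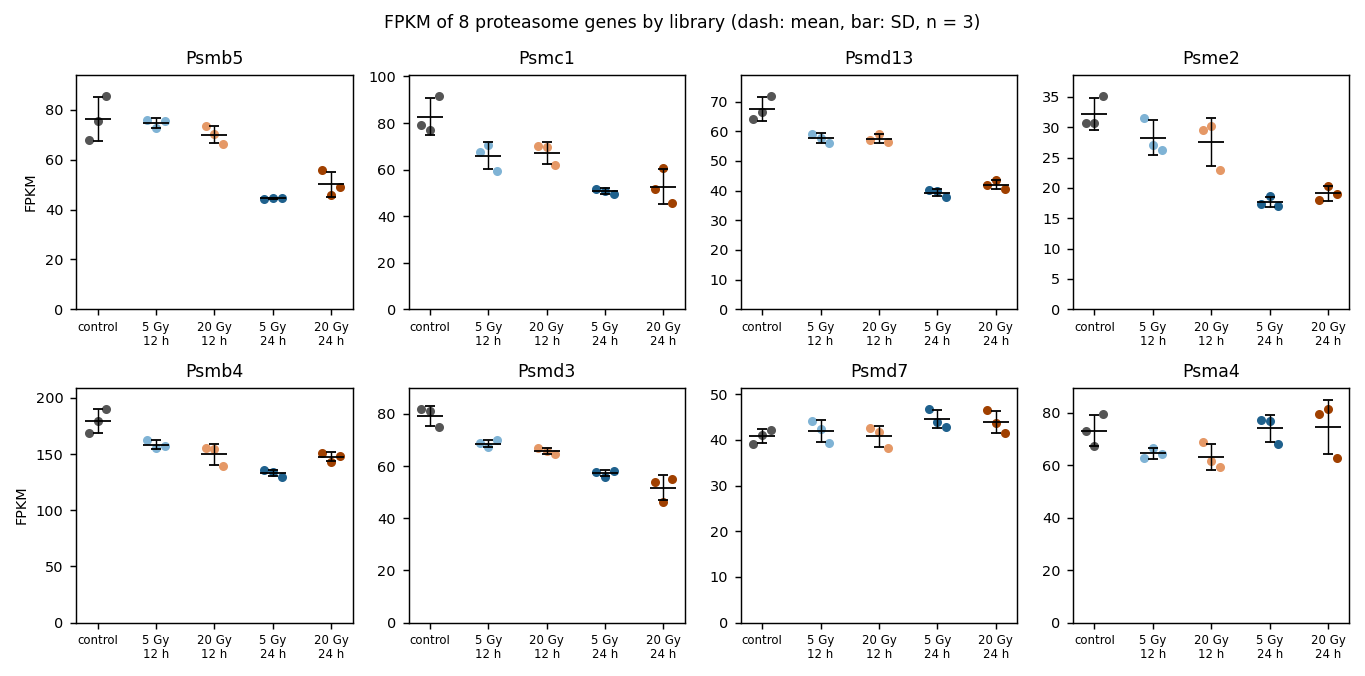
FPKM of 8 genes in each library, with the group mean (dash) and SD (bar, n = 3). Psmb5, Psmc1, Psmd13 and Psme2 lay below all controls in all 24 h libraries, as did Psmb4 and Psmd3, while the 20 Gy libraries of Psmd7 and Psma4 at 24 h overlapped the controls.

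The inhibitor PI31 (Psmf1) and the assembly chaperones varied with their transcripts. Psmf1 ran from 3.25 to 18.2 FPKM on named transcripts, and its log2 changes, from -0.80 to 0.41, had SE of 0.65. Over the whole locus it fell 24 h after 5 Gy, at -0.38 ± 0.14 (adjusted p = 0.0332), and had -0.01 ± 0.14 (adjusted p = 0.95) after 20 Gy. Of the 7 assembly chaperones, 2 fell at each dose by adjusted p on named transcripts. Psmg4, a chaperone of the alpha ring, fell at both doses, at -0.73 ± 0.16 (adjusted p = 0.00327) and -0.51 ± 0.16 (adjusted p = 0.0235). Psmg1, another chaperone of core assembly, stood at 28.8, 28.8 and 32.2 FPKM in control cells, 7.39, 36.0 and 38.9 FPKM after 5 Gy and 36.0, 32.0 and 8.97 FPKM after 20 Gy on the named transcript. Over the whole locus, the 24 h libraries were at 35.4, 36.0 and 38.9 FPKM after 5 Gy and 36.0, 32.0 and 39.8 FPKM after 20 Gy. Psmg1 then rose, at 0.29 ± 0.09 (adjusted p = 0.0122) and 0.25 ± 0.09 (adjusted p = 0.0251), the one member higher at 24 h by that sum.

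The chaperones of the 19S base were less certain. Psmd9 stood at 4.95, 4.29 and 17.6 FPKM in control cells and 2.90, 2.22 and 3.72 FPKM 24 h after 5 Gy, with a log2 change of -1.10 ± 0.38 (adjusted p = 0.0316). Control replicate 3 carried much of it, and without that library the change was not called. It was also not called without replicate 1 or without replicate 2 of the 24 h 5 Gy group. A sum with the unnamed transcripts that overlap Psmd9 was chosen after the data were seen. On it the log2 changes of Psmd9 were -0.76 ± 0.16 (adjusted p = 0.00114) after 5 Gy and -0.50 ± 0.16 (adjusted p = 0.0172) after 20 Gy. Psmd5 had 92.5% of its locus in unnamed transcripts. On the named one its log2 change was -0.95 ± 0.51 (adjusted p = 0.157) after 20 Gy, and on the full sum -0.13 ± 0.09 (adjusted p = 0.201). Psmd10, known as the oncoprotein gankyrin, was called lower after 20 Gy, at -0.67 ± 0.20 (adjusted p = 0.0167). The call was lost when control replicate 2, control replicate 3 or replicate 1 of the 24 h 20 Gy group was left out.

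At 12 h the change was smaller. By adjusted p, 4 genes (Psmb2, Psmc2, Psmc3 and Psmd13) fell after 5 Gy and 6 (Psmb2, Psmb4, Psmb6, Psmc2, Psmd13 and Psmd3) after 20 Gy, or 9.09% and 13.6% of the 44, where 5.32% and 4.49% of all genes tested were lower and 6.28% and 5.62% higher. With a fold of at least 1.5, limma called 0 genes at an adjusted p under 0.05 and 0 at an unadjusted p under 0.05. Without a fold limit, 11 and 15 genes had an unadjusted p under 0.05. Of all genes tested, 3.79% and 2.88% were called lower and 4.11% and 3.93% higher. The median log2 change was -0.18 and -0.19, beside 0.02 and 0.01 over all genes tested. Changes were negative for 35 and 38 of the 44 genes. All 3 libraries lay below all controls for 12 and 16 genes (27.3% and 36.4%), where 14.6% and 14.5% of all genes did so. By the full sums of the loci, 7 and 11 members fell at 12 h, beside 8.37% and 7.54% of all genes tested. Without control replicate 3 the medians were -0.084 and -0.0805, beside 0.03 and 0.01 over all genes tested. The adjusted p was then under 0.05 for no member after 5 Gy and for 1 after 20 Gy.

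Between 12 and 24 h, 14 genes fell by adjusted p after 5 Gy (31.8%, background 23.7%) and 12 after 20 Gy (27.3%, background 25.9%). On FPKM, no member rose in limma by that rule, where 15.4% and 13.2% of all genes did (11.6% and 9.99% with the fold limit), and 1 member, Psma4 after 20 Gy, was higher at an unadjusted p under 0.05. After quantile normalization, 8 fell and 5 rose after 5 Gy (background 19.7% and 17.8%), and 7 fell and 8 rose after 20 Gy (background 19.5% and 17.1%). Psma4, Psma6, Psma7, Psmc2 and Psmd7 were among those that rose on that scale after both doses. With TPM scaling, 1 member rose after each dose. The genes called lower were Psmb5, Psmc5, Psme2 and Psmg4 after 5 Gy (background 16.9%) and Psmc5, Psmd1 and Psmd10 after 20 Gy (background 18.9%). By full sums, 1 gene was called after 20 Gy, beside 22.1% of all genes tested. The medians were -0.24 and -0.18, beside -0.12 and -0.17 over all genes tested. On named transcripts, the shift of the proteasome genes from 12 to 24 h after 20 Gy was thus close to that of all genes. On full sums it was smaller than that of all genes, with a median of -0.0588 beside -0.145.

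The doses were not separated. In limma no member passed an adjusted p of 0.05 for 20 Gy against 5 Gy at 12 h or at 24 h, or for the difference of the time changes, and 0, 1 and 2 members had an unadjusted p under 0.05. Few genes of any kind were called (0.0372%, 1.53% and 0.36% of all genes tested, in that order, or 1.96% at 24 h without the fold limit). This does not show that the doses act alike. The log2 difference of 20 Gy minus 5 Gy at 24 h was 0.16 ± 0.09 for Psmb5 (95% interval -0.03 to 0.36, adjusted p = 0.446) and 0.10 ± 0.11 for Psme2 (95% interval -0.14 to 0.35, adjusted p = 0.751).

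The rest of the ubiquitin-proteasome system was described over a list of 36 names, of which 33 were in the table and 31 were tested. On named transcripts, 1 was called higher and 4 lower 24 h after 5 Gy, and 2 higher and 2 lower 24 h after 20 Gy, beside 14.7% higher and 18.8% lower and 12.6% higher and 20.5% lower of all genes tested. On full sums, 6 and 6 were called higher, beside 20.5% and 17% of all, and 2 and 1 lower, beside 20.8% and 23.3%.

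Zfand2a, an arsenite-inducible protein that binds the proteasome, was below control at 12 h and above it at 24 h. Its named transcripts stood at 4.18, 3.00 and 3.42 FPKM in control cells, 1.77 to 2.07 FPKM at 12 h, 6.07, 7.12 and 6.30 FPKM 24 h after 5 Gy and 6.13, 4.59 and 7.56 FPKM 24 h after 20 Gy. The log2 changes at 24 h were 0.73 ± 0.16 (adjusted p = 0.00226) and 0.63 ± 0.16 (adjusted p = 0.00579). On the full sum the locus stood at 9.40 to 11.4 FPKM in control cells, 14.5 to 15.9 FPKM after 5 Gy and 36.9 to 48.6 FPKM after 20 Gy, with log2 changes of 0.54 ± 0.11 (adjusted p = 0.00105) and 1.99 ± 0.11 (adjusted p = 2.19e-08).

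Genes of the immunoproteasome fell in part. Psmb10 stood at 19.7, 25.3 and 31.9 FPKM in control cells, 11.3, 11.9 and 10.6 FPKM 24 h after 5 Gy, and 9.05, 11.3 and 11.9 FPKM 24 h after 20 Gy, with log2 changes of -1.09 ± 0.26 (adjusted p = 0.00432) and -1.16 ± 0.26 (adjusted p = 0.00299). Psmb9 fell after 5 Gy (-0.58 ± 0.09, adjusted p = 0.000248), and after 20 Gy had -0.24 ± 0.09 (adjusted p = 0.0513). Psmb8 did not pass, at -0.11 ± 0.26 and -0.30 ± 0.26. Sem1, the smallest lid subunit, which the naming rule did not take, fell at both doses, at -0.69 ± 0.10 (adjusted p = 0.000142) and -0.38 ± 0.10 (adjusted p = 0.00831).

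The values of regulators of the subunit genes depended on the transcripts summed. Nfe2l1 (NRF1) ran from 0 to 11.3 FPKM on named transcripts. On the full sum it stood at 69.6, 65.1 and 57.5 FPKM in control cells, 95.6, 95.3 and 76.7 FPKM 12 h after 5 Gy and 88.8, 94.7 and 96.0 FPKM 12 h after 20 Gy. Nfe2l1 rose at 12 h by that sum, at 0.47 ± 0.11 (adjusted p = 0.00974) and 0.54 ± 0.11 (adjusted p = 0.00514), and had 0.12 ± 0.11 (adjusted p = 0.381) and -0.02 ± 0.11 (adjusted p = 0.868) at 24 h. Nfe2l2 (NRF2), called lower 24 h after 5 Gy on named transcripts (-2.06 ± 0.67, adjusted p = 0.0252), was higher on the full sum, at 0.74 ± 0.09 (adjusted p = 1.71e-05). The full sum of Nfe2l2 lay above all controls (77.0 to 94.8 FPKM) in every exposed group. It stood at 107 to 112 FPKM (5 Gy) and 115 to 131 FPKM (20 Gy) at 12 h. At 24 h it stood at 136 to 142 FPKM (5 Gy) and 120.5 to 147 FPKM (20 Gy). Ngly1, the glycanase that processes NRF1, was called lower at 24 h on named transcripts, at -0.72 ± 0.18 (adjusted p = 0.00623) and -1.42 ± 0.18 (adjusted p = 5.72e-05). Its full sum stood at 18.2 to 21.1 FPKM in control cells and 22.8 to 25.6 FPKM at 24 h, and there it rose by 0.29 ± 0.08 and 0.25 ± 0.08 on the log2 scale (adjusted p = 0.00527 and 0.0111).

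**Figure D5:**
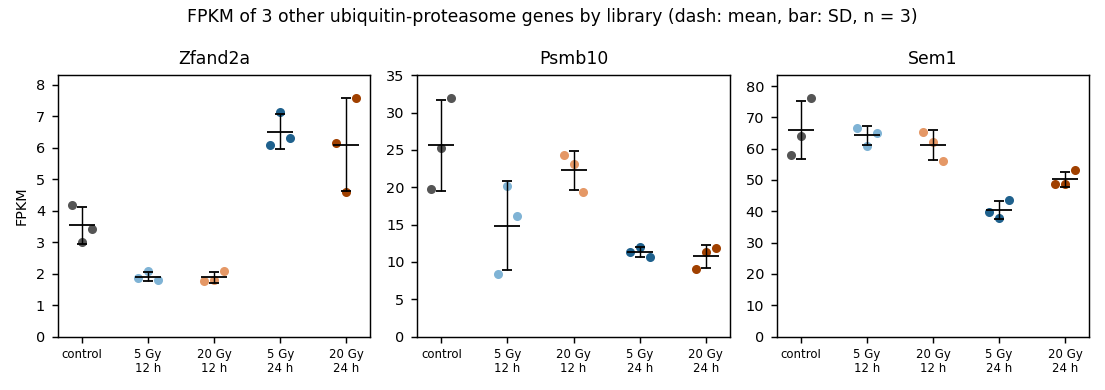
FPKM of Zfand2a, Psmb10 and Sem1 in each library, named transcripts only, with the group mean (dash) and SD (bar, n = 3). Zfand2a lay below the controls at 12 h and above them at 24 h, and Psmb10 and Sem1 lay below the controls at 24 h after both doses.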

How the data were processed

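RNA of 15 BMEC libraries (5 groups of 3) was sequenced. Per the study's methods and the submitters' processing notes, the authors trimmed reads with Trimmomatic, checked them with FastQC, aligned them to Rnor_6.0 with HISAT2 2.0.13 and assembled and quantified transcripts with StringTie. The deposited values are FPKM of 85322 transcripts, scaled by the authors to transcript length and mapped fragments; 44258 transcripts carried no gene name. Spacing of low values gave depths of 5.44 to 7.49 gigabases per library.

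FPKM was summed per gene name and library. Unnamed transcripts of named loci (34171) were left out. An alternative, called the full sum, added back those of loci with 1 gene name, which leaves Psmd8, Psmd9 and Psme3 unchanged. Features with a mean of at least 0.5 FPKM (16124 of 37367) were tested on log2(FPKM + 1) with limma 3.58.1 (R 4.3.3, trend, all 15 libraries, 9 comparisons, Benjamini-Hochberg over all features tested). A call needed an adjusted p under 0.05 and a fold of at least 1.5. Fold changes on this scale understate changes of low genes. Errors are SE of the fit unless given as SD.

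The members, the list of 36 ubiquitin-proteasome genes and the marker lists were chosen with earlier results of these data known. Values of single libraries or their ranges, in some or all groups, were given for the highest member of each class. They were also given for the 3 largest rises and falls at 24 h after each dose and the largest change at 12 h. For Psmd5 only log2 changes were given, and for Psme4 the library values are of the full sum. Of other pathway genes, values were given for those called in both 24 h groups or in a 12 h group. Psmb5, Psmc1, Psmd13, Psmd7 and the further genes named were added after their values were seen. Of the pathway list, Shfm1, Paaf1 and Ufd1l were not analysed here and Nfe2l3 and Nploc4 were below the limit. Another gene of the pathway is not reported here. Alternatives were quantile normalization, TPM scaling, other pseudocounts and filters, the replicate block and leaving out each library.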

Additional observations from a re-analysis of the deposited data

How the results depend on the processing

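The number of proteasome genes called lower depended on the fold limit. In the order 5 Gy at 12 h, 20 Gy at 12 h, 5 Gy at 24 h, 20 Gy at 24 h, and 24 against 12 h after 5 Gy and 20 Gy, no fold limit gave 4, 6, 26, 23, 14 and 12 genes, and a fold of at least 2 gave 2, 1, 1 and 1 in the last 4. The share of all genes tested with a fold of at least 2 is not given. Quantile normalization gave 4 and 5 calls at 24 h (9.09% and 11.4% of the members), beside 16.1% and 16% of all genes tested called lower. Its medians were -0.11 (5 Gy at 12 h), -0.16 and -0.10 (24 h), and -0.11 and -0.0607 (24 against 12 h). TPM scaling gave 6 calls 24 h after 5 Gy (13.6% of the members), and the share of all genes tested is not given for that fit. Its medians were -0.27 and -0.26 at 24 h, beside 0.0027 and -0.13 over all genes tested. The member medians were -0.15 for 24 against 12 h after 5 Gy, 0.0045 for the doses at 24 h and 0.0239 for the difference of time changes. The full sum gave medians of -0.15 and -0.0588 for 24 against 12 h, beside -0.077 and -0.145 over all genes tested. It gave 1 call after 20 Gy. Adding loci with several names, chosen after seeing the data, gave -0.15, -0.0669 and 1, and adding also unnamed transcripts with the ends of a named one gave -0.15, -0.0434 and 1. Ngly1 reversed on these 3 sums, to 0.29, 0.25, 0.11 and 0.13 (24 h against control and against 12 h, 5 Gy then 20 Gy), where the sum includes the unnamed transcripts that held part of its 24 h level.

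Leaving out 1 library at a time gave 5 to 12 calls (5 Gy at 24 h), 5 to 10 (20 Gy at 24 h), 3 to 4 and 1 to 4 (24 against 12 h), and 0 elsewhere. The share of all genes called in these fits is not given. The lowest counts at 24 h came without control replicate 3, when Psmc3, Psmd8, Psmd9, Psme1 and Psmg4 were lost after 5 Gy and Psmb5, Psmc1, Psmd1 and Psmd10 after 20 Gy. Medians ran from -0.21 to -0.084, -0.26 to -0.0805, -0.45 to -0.32 and -0.41 to -0.23 against control, -0.25 to -0.17 and -0.19 to -0.14 for 24 against 12 h, -0.05 to 0.01 and 0.03 to 0.09 between doses, and 0.05 to 0.12 for the difference of time changes. Same-numbered replicates deviated together weakly or not at all (30 pairs, r from -0.08 to 0.11, 1 over 0.1). Between the doses at the same time, r was 0.10, 0.02 and 0.11 at 12 h and 0.07, 0.02 and 0.03 at 24 h. Differently numbered pairs there ran from -0.11 to 0.03. Correlations this weak cannot show whether the numbers pair the samples. With the replicate block, 0, 0, 10, 9, 4 and 2 genes were called. The share of all genes called in that fit is not given. Other causes were not tested.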
